A study of Mus musculus with 15 samples.

Results

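A set of 10 secreted signalling genes was followed through adipogenic treatment of mouse embryonic fibroblasts (MEFs), the connective tissue cells isolated from embryos that can be induced to form adipocyte-like cells. The members were chosen by name and matched to the Ensembl identifiers of the counts. They were the chemokines Cxcl10, Ccl5, Cxcl1, Cxcl5, Ccl2, Ccl7, Cxcl12 and Cx3cl1 and the cytokines Il6 and Csf1. All 10 were listed among the 29186 genes with at least 1 count. Of the 15997 genes with enough counts to be tested, 9 were members, and Cxcl5 was the member left out.

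RNA-Seq was performed on 15 libraries in 5 conditions, with 3 replicates each, numbered 1, 3 and 4. All MEFs were wild-type and of strain BALB/c, taken from embryos aged 10.5 days, and were grown in DMEM with 10% FBS. The paper's introduction, in a general description of MEFs, names another embryo age and another strain. MEFD0 cells were collected at day 0 (D0), before any treatment. MEFD3min and MEFD5min cells were left untreated until day 3 (D3) and day 5 (D5). MEFD3plu cells were given 4 agents together from confluency to D3, namely 10 μg/mL insulin, 10 μM rosiglitazone (a PPARγ agonist), 1 μM dexamethasone (a glucocorticoid) and, to raise cAMP, 3-isobutyl-1-methylxanthine at 0.5 mM. MEFD5plu cells received the same agents up to D3 and then growth medium without them until D5. The part of each agent cannot be told apart. In these bulk libraries, fewer cells of a type and less RNA per cell cannot be told apart either. The labels do not say whether replicates came from separate embryos or cultures, and p-values measure only the spread between these samples, which may be technical.

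Chemokines are small secreted proteins that draw leukocytes along a gradient by binding G-protein-coupled receptors, and fibroblasts and preadipocytes are known sources of several of them. Many of their genes are switched on by NF-kB, the factor released downstream of TNF, IL-1 and Toll-like receptors. Others respond chiefly to interferons, whose receptors act through STAT and IRF factors on the interferon-stimulated response element (ISRE). By this background, Cxcl10 and Ccl5 were taken as interferon-type members, and Cxcl1, Cxcl5, Ccl2, Ccl7 and Il6 as NF-kB-type members. Cxcl12, Cx3cl1 and Csf1 formed the remaining class of other members. The division is not strict, since Cxcl10, Ccl5 and Ccl2 are known to respond to both pathways.

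The stretch of 250 bases before the transcription start was searched for these elements in RefSeq promoters (GRCm38.p6), which were at hand for 6 of the 10 members. They cover 1 interferon-type member, 2 NF-kB-type members and all 3 other members. Those of Cxcl10, Cxcl1, Il6 and Cxcl12 are given here 5′ to 3′ on the strand of the gene, because they show an interferon-type, a pair of NF-kB-type and an other member side by side. Capitals mark matches to the ISRE or to the kappaB site, the DNA element bound by NF-kB. The sequences are those of the reference genome, and BALB/c may differ from it.
Cxcl10, chr5:92348890-92349139, minus strand: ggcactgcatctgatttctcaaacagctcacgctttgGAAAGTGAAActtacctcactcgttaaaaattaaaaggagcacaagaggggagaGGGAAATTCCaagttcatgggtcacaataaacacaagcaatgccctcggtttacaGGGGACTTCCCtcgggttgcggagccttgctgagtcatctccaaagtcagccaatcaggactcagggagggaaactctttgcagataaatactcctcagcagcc
Cxcl1, chr5:90890995-90891244, plus strand: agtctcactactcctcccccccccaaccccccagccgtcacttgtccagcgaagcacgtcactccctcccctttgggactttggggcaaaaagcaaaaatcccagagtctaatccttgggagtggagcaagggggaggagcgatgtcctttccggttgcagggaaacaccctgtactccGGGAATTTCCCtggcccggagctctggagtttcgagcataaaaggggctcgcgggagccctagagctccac
Il6, chr5:30012864-30013113, plus strand: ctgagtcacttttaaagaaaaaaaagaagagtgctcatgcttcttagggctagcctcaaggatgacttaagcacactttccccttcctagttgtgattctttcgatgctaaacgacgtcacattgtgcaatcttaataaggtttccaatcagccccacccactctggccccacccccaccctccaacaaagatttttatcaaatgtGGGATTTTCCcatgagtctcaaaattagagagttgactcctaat
Cxcl12, chr6:117168285-117168534, plus strand: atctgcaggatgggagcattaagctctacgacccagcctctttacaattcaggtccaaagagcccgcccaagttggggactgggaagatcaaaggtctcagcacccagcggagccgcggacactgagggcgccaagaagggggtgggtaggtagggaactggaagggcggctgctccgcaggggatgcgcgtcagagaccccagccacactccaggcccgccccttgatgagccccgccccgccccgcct

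Both strands were searched for the ISRE, spelled as GAAA, 2 bases of any kind and GAAA, which 2.98% of 32851 RefSeq promoters of this length held. Among the 6 members it was found in Cxcl10, from 213 to 204 bases before the start. The strict kappaB spelling, GGGA and TTCC with 2 bases between them, was present in 1.21% of promoters. It matched Cxcl10 from 159 to 150, Cxcl1 from 71 to 62, Il6 from 44 to 35 and, on the reverse strand, Csf1 from 154 to 145 bases before the start. In Cxcl1 the same bases also matched on the reverse strand, shifted by 1 base. The looser NF-kB consensus decamer, which includes the strict spelling and was present in 7.25% of promoters, gave an overlapping pair of further matches in Cxcl10 between 104 and 94 bases before the start. An AP-1 site, TGANTCA, present in 6.75% of promoters, lay in Cxcl10 from 74 to 68 and in Il6 from 249 to 243 bases before the start. The C/EBP palindrome, ATTG and CAAT with 2 bases between them, present in 0.417% of promoters, lay in Il6 from 129 to 120 bases before the start. Cxcl12 and Cx3cl1 held none of these spellings in this window. The matches did not follow the classes, as kappaB spellings were present in members of all 3. A match describes letters and is not evidence of a bound factor.

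The libraries held 24030558 to 37281126 counts each, and levels are given as CPM, the count scaled to library size with TMM factors. All 8 fibroblast markers exceeded 3 counts in every library, and their sum was 21050 to 28250 CPM in MEFD3min against 8165 to 13850 CPM elsewhere. Summed adipocyte markers reached 3594 to 4731 CPM in MEFD3plu and 5998 to 7196 CPM in MEFD5plu, against at most 12.4 CPM elsewhere. Leukocytes, a common source of chemokines in tissue, were checked with 10 macrophage markers, which summed to between 2.43 and 13.2 CPM. Adgre1 was at 0 in all libraries, and Itgam, Fcgr1 and Tyrobp never exceeded 1 count. The sum was 2.43 to 3.29 CPM in MEFD0, 10.3 to 12.4 in MEFD3min, 5.92 to 6.68 in MEFD3plu, 10.8 to 13.2 in MEFD5min and 9.02 to 10.8 in MEFD5plu, with Cd68, Lyz2 and Mrc1 as its main contributors. The part of these cell type differences in the chemokine levels was not tested. T and NK cell markers did not exceed 1 count. MEFD5min replicate 3 had the lowest depth and stood apart from replicates 1 and 4 in several members. Calls that change without it are given both ways.

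**Figure D1:**
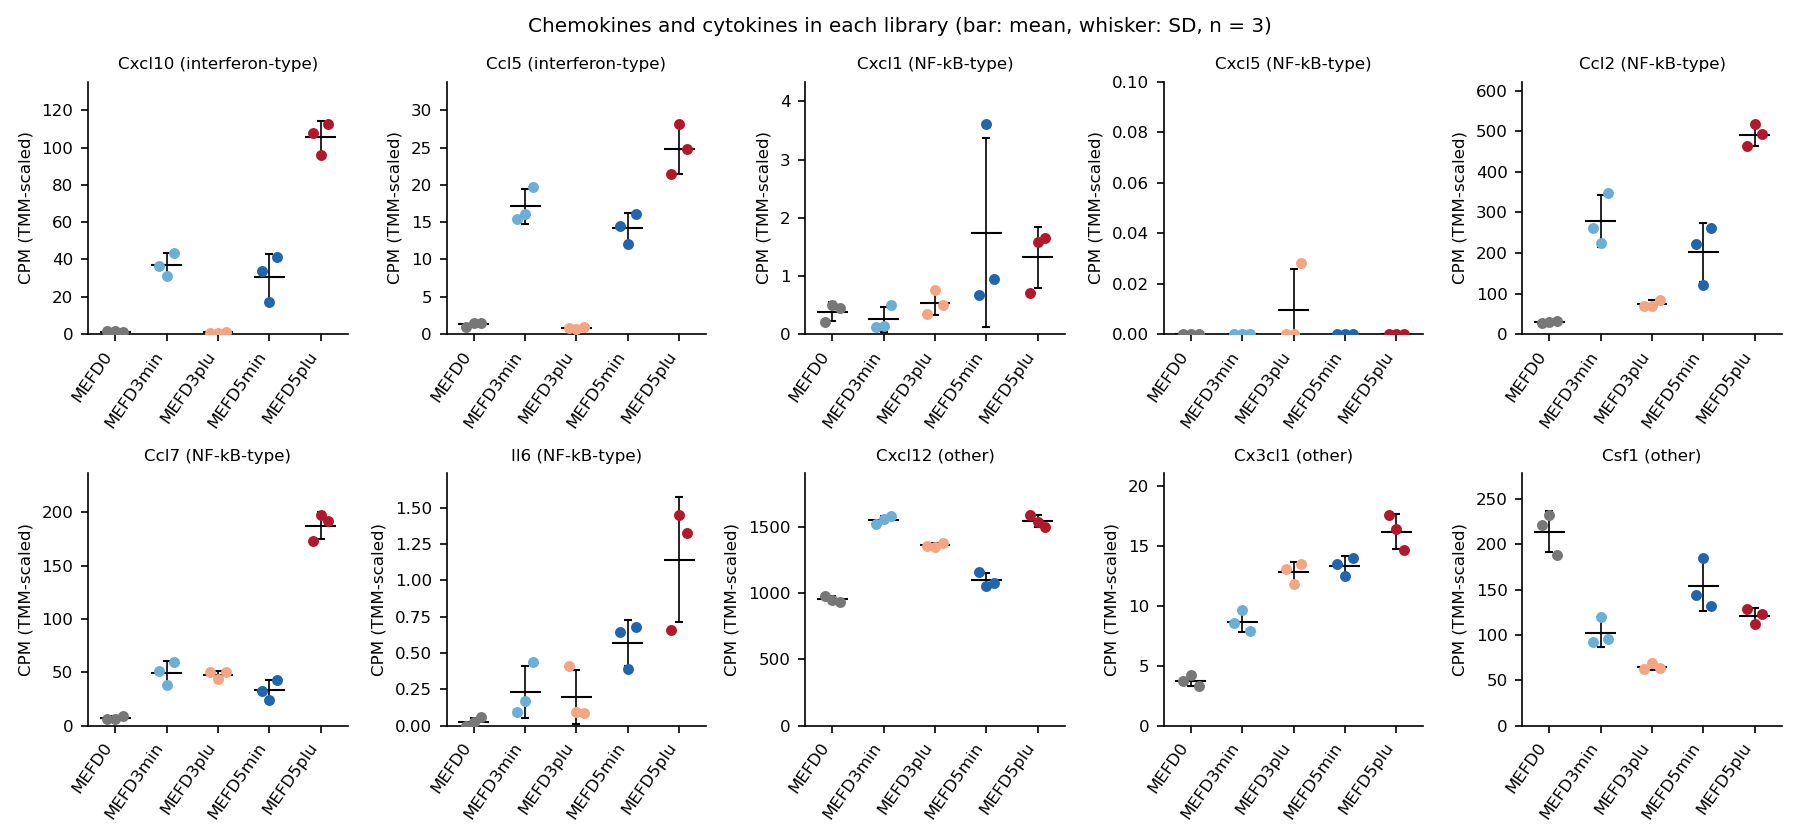
TMM-scaled CPM of the 10 members in each of the 15 libraries, on linear axes from 0, with points for libraries, bars for means and whiskers for SDs (n = 3). Cxcl10 and Ccl5 lay near 0 in MEFD0 and MEFD3plu and were highest in MEFD5plu, Ccl2 and Ccl7 were already above MEFD0 in MEFD3plu, Csf1 was highest in MEFD0, and Cxcl5 held 1 count in 1 library.

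Cxcl10 draws activated T cells and NK cells through the receptor CXCR3 and is encoded on chromosome 5 (GRCm38, 92346638 to 92348889, minus strand). In cells without agents, it measured 1.44, 1.48 and 1.17 CPM in MEFD0, 36.7, 31.1 and 43.4 CPM in MEFD3min and 33.6, 17.0 and 41.1 CPM in MEFD5min. In treated cells, it measured 0.784, 0.752 and 1.10 CPM in MEFD3plu and 107.8, 96.3 and 112.9 CPM in MEFD5plu. The treated and untreated groups did not overlap on either day, as for 56.8% of all genes at D3 and 62.1% at D5, and the treated group was the low one at D3 and the high one at D5. At D3, Cxcl10 fell by 5.38 on the log2 scale (SE 0.299), with an adjusted p of 9.38e-11 by the quasi-likelihood test of edgeR, adjusted after Benjamini and Hochberg over all genes tested, as are all adjusted p-values here. At D5 it rose by 1.78 (SE 0.213, adjusted p = 3.02e-06). The treated level at D3 could not be separated from MEFD0 by this test (log2 fold change -0.62, adjusted p = 0.174), although the groups did not overlap, as for 69.1% of all genes in that comparison. Without MEFD5min replicate 3, the test did separate them (-0.62, adjusted p = 0.0277). From MEFD3plu to MEFD5plu it rose by 6.89 (SE 0.303, adjusted p = 1.07e-11). Exons of Art3 on the opposite strand cover 5.91% of the exon bases of Cxcl10, and without a known strand setting reads of both genes cannot be told apart there.

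Ccl5 (RANTES), a chemokine that recruits T cells, monocytes and eosinophils, is on chromosome 11 (83525778 to 83530518, minus strand). Its untreated levels were 0.994, 1.54 and 1.48 CPM in MEFD0, 15.5, 16.1 and 19.7 CPM in MEFD3min and 14.5, 12.1 and 16.2 CPM in MEFD5min. Its treated levels were 0.852, 0.720 and 0.902 CPM in MEFD3plu and 21.4, 28.2 and 24.8 CPM in MEFD5plu. As for Cxcl10, the MEFD3plu libraries were the lowest of all and the MEFD5plu libraries the highest of all. The log2 fold change was -4.36 at D3 (SE 0.193, adjusted p = 5.38e-12) and 0.80 at D5 (SE 0.143, adjusted p = 0.00019). MEFD3plu fell below MEFD0 (log2 fold change -0.71, adjusted p = 0.0146). That last call was lost without MEFD0 replicate 3 (-0.60, adjusted p = 0.0647), MEFD0 replicate 4 (-0.64, adjusted p = 0.0509) or MEFD3plu replicate 3 (-0.62, adjusted p = 0.0577).

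Among NF-kB-type members, Ccl2 (MCP-1) and Ccl7 (MCP-3), both monocyte chemoattractants that act through CCR2, are neighbours on chromosome 11. Ccl2 spans 82035571 to 82037453 and Ccl7 spans 82045712 to 82047525, both on the plus strand. Ccl2 measured 26.7, 30.4 and 33.2 CPM in MEFD0, 262, 225 and 349 CPM in MEFD3min and 223, 121 and 263 CPM in MEFD5min. In treated cells it measured 69.5, 70.1 and 84.5 CPM in MEFD3plu and 465, 519 and 493 CPM in MEFD5plu. The MEFD3plu libraries thus lay below both untreated groups of D3 and D5 and above every MEFD0 library. Ccl2 fell by 1.90 at D3 on the log2 scale (SE 0.213, adjusted p = 7.84e-07) and rose by 1.28 at D5 (SE 0.208, adjusted p = 7.49e-05). Against MEFD0, the treated D3 cells were higher by 1.31 (SE 0.214, adjusted p = 4.04e-05).

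Ccl7 measured 6.34, 6.49 and 8.73 CPM in MEFD0, 51.1, 38.5 and 59.4 CPM in MEFD3min and 32.5, 24.0 and 43.0 CPM in MEFD5min. It measured 50.04, 43.3 and 49.8 CPM in MEFD3plu and 173, 197 and 192 CPM in MEFD5plu. At D3 the treated values lay within the untreated range. At D5 every treated library was above every untreated one, where 62.1% of all genes had groups without overlap. The log2 fold change was -0.06 at D3 (SE 0.177, adjusted p = 0.804) and 2.49 at D5 (SE 0.184, adjusted p = 9.95e-09), the largest D5 value among the 9 tested members. Both MEFD3min (2.78, SE 0.197) and MEFD3plu (2.73, SE 0.197) were above MEFD0, with adjusted p-values of 1.98e-09 and 1.77e-09.

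Il6 encodes interleukin-6, a cytokine that signals through IL6RA and the shared chain IL6ST, and it lies on chromosome 5 (30013114 to 30019981, plus strand). It was scarce, with 0, 1 and 2 counts in MEFD0, 3, 6 and 13 counts in MEFD3min and 23, 10 and 25 counts in MEFD5min. Treated cells held 12, 3 and 3 counts in MEFD3plu and 22, 45 and 44 counts in MEFD5plu. Treated and untreated libraries overlapped on both days. MEFD0 was at or under the floor of 3 counts per library, and against this floor Il6 was at least 2.63-fold higher in MEFD3min, 2.21-fold in MEFD3plu, 6.41-fold in MEFD5min and 12.9-fold in MEFD5plu. The first of these bounds fell to 1.48 without MEFD3min replicate 4, and without MEFD3plu replicate 1 the MEFD3plu libraries were at the floor too, so that no fold can be given. The log2 fold change was -0.27 at D3 (SE 0.693, adjusted p = 0.766) and 0.98 at D5 (SE 0.516, adjusted p = 0.126). The D5 difference passed the threshold when only the samples compared were fitted (0.97, adjusted p = 0.0456). From MEFD3plu to MEFD5plu, Il6 rose by 2.57 (SE 0.595, adjusted p = 0.00123).

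Cxcl1 (KC), a neutrophil chemoattractant acting through CXCR2, lies on chromosome 5 (90891241 to 90893115, plus strand). It held 6, 19 and 16 counts in MEFD0, 4, 5 and 15 counts in MEFD3min and 24, 93 and 35 counts in MEFD5min. It held 10, 24 and 18 counts in MEFD3plu and 24, 49 and 55 counts in MEFD5plu. The groups of each day overlapped, and the highest library was MEFD5min replicate 3, at 3.62 CPM. Neither the D3 log2 fold change of 1.09 (SE 0.727, adjusted p = 0.218) nor the D5 value of -0.37 (SE 0.557, adjusted p = 0.614) passed the threshold. Without MEFD5min replicate 3 the D5 value turned to 0.70 (adjusted p = 0.296). Cxcl1 rose in untreated cells from D3 to D5 by 2.74 (SE 0.67, adjusted p = 0.00313). Its rise from MEFD0 to MEFD5min, 2.102 (adjusted p = 0.0108), was lost without that library (1.04, adjusted p = 0.143).

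Cxcl5, another CXCR2 ligand (chromosome 5, 90759360 to 90761624, plus strand), had 0 counts in 14 libraries and 1 count in MEFD3plu replicate 4. It was at the floor in all 5 conditions and was not tested.

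Of the other members, Cxcl12 (SDF-1), the CXCR4 ligand that retains haematopoietic cells in stromal niches, was abundant throughout (chromosome 6, 117168535 to 117181367, plus strand). It measured 977, 948 and 931 CPM in MEFD0, 1525, 1557 and 1584 CPM in MEFD3min and 1162, 1054 and 1073 CPM in MEFD5min. In treated cells it measured 1356, 1347 and 1382 CPM in MEFD3plu and 1589, 1537 and 1500 CPM in MEFD5plu. The groups did not overlap on either day, as for 56.8% of all genes at D3 and 62.1% at D5. The D3 log2 fold change of -0.19 (SE 0.0741, adjusted p = 0.036) was lost when only the samples compared were fitted (-0.20, adjusted p = 0.144), with no filter (-0.21, adjusted p = 0.103) and in 6 of the 15 fits that left out 1 library. These omitted MEFD3min replicates 1 or 4, MEFD3plu replicates 1, 3 or 4, or MEFD5min replicate 4, and gave values from -0.21 to -0.18. At D5 Cxcl12 rose by 0.49 (SE 0.0743, adjusted p = 3.64e-05).

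Cx3cl1 (fractalkine), a membrane-tethered chemokine that binds CX3CR1 on monocytes and NK cells, lies on chromosome 8 (94772009 to 94782427, plus strand). It measured 3.70, 4.21 and 3.32 CPM in MEFD0, 8.58, 9.65 and 7.87 CPM in MEFD3min and 13.5, 12.5 and 14.1 CPM in MEFD5min. It measured 13.1, 11.8 and 13.5 CPM in MEFD3plu and 17.6, 16.4 and 14.7 CPM in MEFD5plu. Every treated library was above every untreated library of its day, where 56.8% of all genes had groups without overlap at D3 and 62.1% at D5. Cx3cl1 rose by 0.56 at D3 (SE 0.117, adjusted p = 0.000595). The D5 value of 0.28 (SE 0.114, adjusted p = 0.0499) lay at the threshold and was lost under DESeq2 (0.23, adjusted p = 0.0808) and in 10 of the 15 fits without 1 library, where the log2 fold change ranged from 0.22 to 0.35 and the adjusted p from 0.0364 to 0.18. Those 10 omitted MEFD0 or MEFD3min replicate 1, any MEFD3plu or MEFD5min library, or MEFD5plu replicates 1 or 3.

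Csf1 (M-CSF), the growth factor on which macrophages depend for survival, lies on chromosome 3 (107741048 to 107760469, minus strand). It was highest at the start, with 221, 232 and 188 CPM in MEFD0, 91.9, 120 and 95.4 CPM in MEFD3min and 144, 185 and 132 CPM in MEFD5min. Treated cells held 62.9, 68.5 and 63.2 CPM in MEFD3plu and 129, 112 and 123 CPM in MEFD5plu. Treated libraries were below the untreated ones on both days, where 56.8% of all genes had groups without overlap at D3 and 62.1% at D5. No library of D3 or D5 reached the lowest MEFD0 value. Csf1 fell by 0.66 at D3 on the log2 scale (SE 0.125, adjusted p = 0.000245) and by 0.34 at D5 (SE 0.124, adjusted p = 0.0303). The D5 call was lost without MEFD5min replicate 3 (-0.19, adjusted p = 0.211), MEFD5plu replicate 3 (-0.29, adjusted p = 0.117) or MEFD5plu replicate 4 (-0.35, adjusted p = 0.0645).

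**Figure D2:**
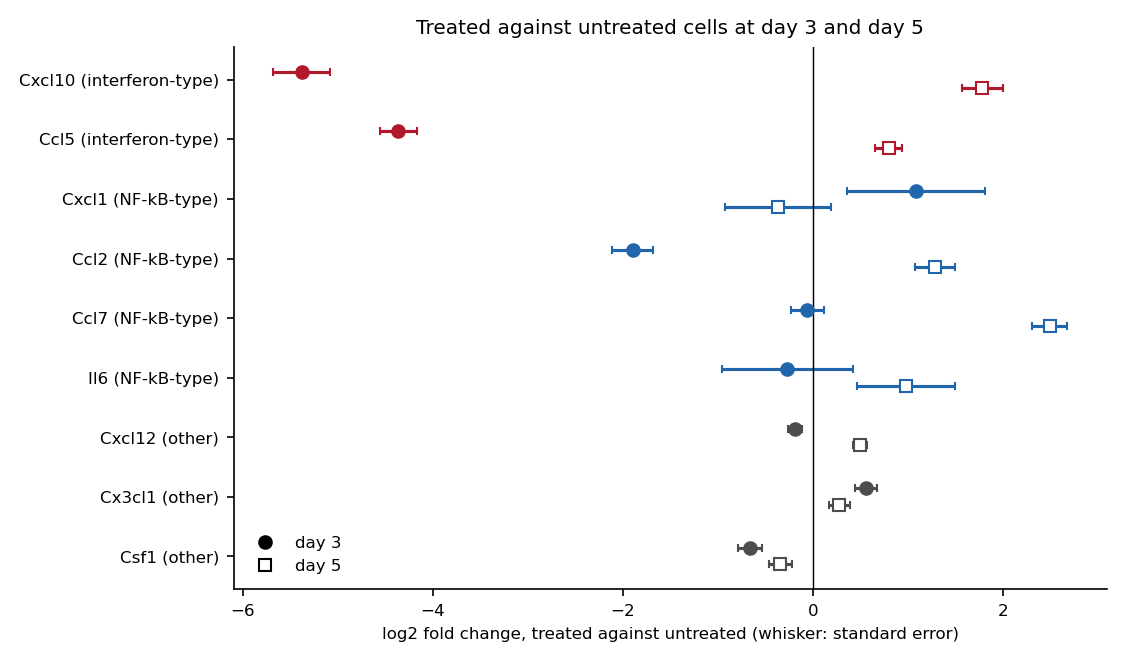
Log2 fold change of the 9 tested members, treated against untreated, at D3 (filled circles) and D5 (open squares), with whiskers for the standard error and colours for the class. Cxcl10 and Ccl5 lay at -5.38 and -4.36 at D3 and above 0 at D5, while the 4 NF-kB-type members were spread from -1.90 to 1.09 at D3.

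Counted together, 1 of the 9 tested members rose and 5 fell at D3 (MEFD3plu/MEFD3min), where 56.1% of all genes tested were called, 28.0% in each direction. At D5 (MEFD5plu/MEFD5min), 6 rose and 1 fell, against 26.3% of all genes rising and 24.2% falling, with 50.5% called in all. The median log2 fold change of the interferon-type members was -4.87 at D3 and 1.29 at D5. For the 4 tested NF-kB-type members it was -0.16 and 1.13, and for the other members -0.19 and 0.28. The median over all genes tested was -0.001 at D3 and 0.010 at D5. At D3 both interferon-type members fell, while of the NF-kB-type members Ccl2 fell and Ccl7, Il6 and Cxcl1 did not pass the test. The interferon-type median minus the NF-kB-type median was -4.71 at D3 and 0.16 at D5, where Ccl7, of the NF-kB type, had a larger value than Cxcl10. The classes hold 2 and 4 tested genes, and the difference between them was not tested.

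The treatment by day interaction asked whether the treated against untreated difference changed between days, as the D3 log2 fold change minus the D5 one. It was negative and past the threshold for 5 of the 9 members and positive past it for 0, where 48.5% of all genes were called, 22.6% positive and 25.8% negative. The value was -7.16 for Cxcl10 (SE 0.37, adjusted p = 1.54e-10) and -5.16 for Ccl5 (SE 0.242, adjusted p = 6.42e-11). It was -3.18 for Ccl2 (SE 0.298, adjusted p = 2.32e-07) and -2.55 for Ccl7 (SE 0.252, adjusted p = 4.36e-07). Cxcl12 had a value of -0.68 (SE 0.105, adjusted p = 4.83e-05). Cxcl10, Ccl5, Ccl2 and Cxcl12 were below the untreated cells at D3 and above them at D5, whereas Ccl7 moved from no called difference to a rise. The interaction was not called for Csf1 (-0.32, adjusted p = 0.147), which was lower in treated cells on both days, nor for Cx3cl1 (0.28, adjusted p = 0.172), which was higher on both. Without MEFD5min replicate 3, the Csf1 interaction passed the threshold (-0.47, adjusted p = 0.0244). Il6 and Cxcl1, the low-count members, had values of -1.25 (SE 0.868) and 1.45 (SE 0.916) that did not pass.

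The untreated cultures themselves were far from constant. From MEFD0 to MEFD3min, 7 of the 9 members rose and 1 fell, where 60.0% of all genes were called, 31.4% rising and 28.6% falling. Cxcl10 rose by 4.76 on the log2 scale (SE 0.279, adjusted p = 1.81e-10), Ccl5 by 3.65 (SE 0.178, adjusted p = 1.73e-11) and Ccl2 by 3.21 (SE 0.226, adjusted p = 1.81e-09). Csf1 fell by 1.06 (SE 0.125, adjusted p = 1.26e-06), and Cxcl1 was the member not called (-0.64, adjusted p = 0.478). The Il6 rise in this comparison (adjusted p = 0.0159) was lost without MEFD0 replicate 1 (adjusted p = 0.0532) or MEFD3min replicate 4 (adjusted p = 0.0978). Because the D3 comparison shares the MEFD3min libraries with this one, a low treated level at D3 and a rise in untreated cells are both read against the same values. From MEFD3min to MEFD5min, 3 members rose and 2 fell, where 42.8% of genes were called, 21.3% rising and 21.5% falling. Cxcl1, Cx3cl1 and Csf1 rose, Cxcl12 and Ccl7 fell, and Cxcl10, Ccl5, Ccl2 and Il6 were not called. The Ccl7 call (-0.58, adjusted p = 0.0147) was lost without MEFD3min replicate 4 (-0.43, adjusted p = 0.0617) or MEFD5min replicate 3 (-0.39, adjusted p = 0.0809). In that comparison Ccl2 passed the threshold without MEFD3min replicate 3 (-0.60, adjusted p = 0.0307) or MEFD5min replicate 4 (-0.70, adjusted p = 0.0167), and Il6 did without MEFD3min replicate 4 (2.09, adjusted p = 0.0215). From MEFD0 to MEFD5min, 8 rose and 1 fell, where 46.4% of genes were called, 24.5% rising and 21.9% falling. The small Cxcl12 rise in it (0.20, adjusted p = 0.0329) was lost without any 1 MEFD0 library or without MEFD5min replicates 1 or 4, with adjusted p-values of 0.0553 to 0.145.

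In treated cells the order of events differed between members. From MEFD0 to MEFD3plu, 5 rose and 2 fell, where 63.5% of genes were called, 33.9% rising and 29.7% falling. Ccl2, Ccl7, Il6, Cxcl12 and Cx3cl1 rose and Ccl5 and Csf1 fell. The Il6 call (adjusted p = 0.0297) was lost without MEFD0 replicate 1 (adjusted p = 0.0867), MEFD0 replicate 3 (adjusted p = 0.0761) or MEFD3plu replicate 1 (adjusted p = 0.239). From MEFD3plu to MEFD5plu, after the agents were withdrawn, 8 rose and 0 fell, where 63.0% of genes were called, 33.8% rising and 29.2% falling. Ccl5 rose by 4.90 (SE 0.192, adjusted p = 4.2e-12), Ccl2 by 2.72 (SE 0.219, adjusted p = 1.65e-08), Ccl7 by 1.97 (SE 0.18, adjusted p = 7.67e-08) and Csf1 by 0.90 (SE 0.126, adjusted p = 9.9e-06). Cxcl1 was not called (1.29, adjusted p = 0.0753), but was without MEFD5min replicate 3 (adjusted p = 0.0273) or MEFD5plu replicate 1 (1.59, adjusted p = 0.044). The Cx3cl1 rise of 0.34 (adjusted p = 0.0155) was lost without MEFD3plu replicate 3 (adjusted p = 0.0726) or MEFD5plu replicate 1 (adjusted p = 0.0726), and the small Cxcl12 rise of 0.18 (adjusted p = 0.0437) was lost in 11 of 15 fits without 1 library, all but those without MEFD3min replicates 3 or 4 or MEFD5min replicates 1 or 3, with values from 0.14 to 0.20. From MEFD0 to MEFD5plu, 8 rose and 1 fell, where 65.0% of genes were called, 35.2% rising and 29.8% falling. Its Cxcl1 call (1.73, adjusted p = 0.0226) was lost without MEFD0 replicate 1 (adjusted p = 0.0843), MEFD5plu replicate 3 (adjusted p = 0.0633) or MEFD5plu replicate 4 (adjusted p = 0.0732). Withdrawal and 2 further days in culture coincide in this design and cannot be told apart.

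**Figure D3:**
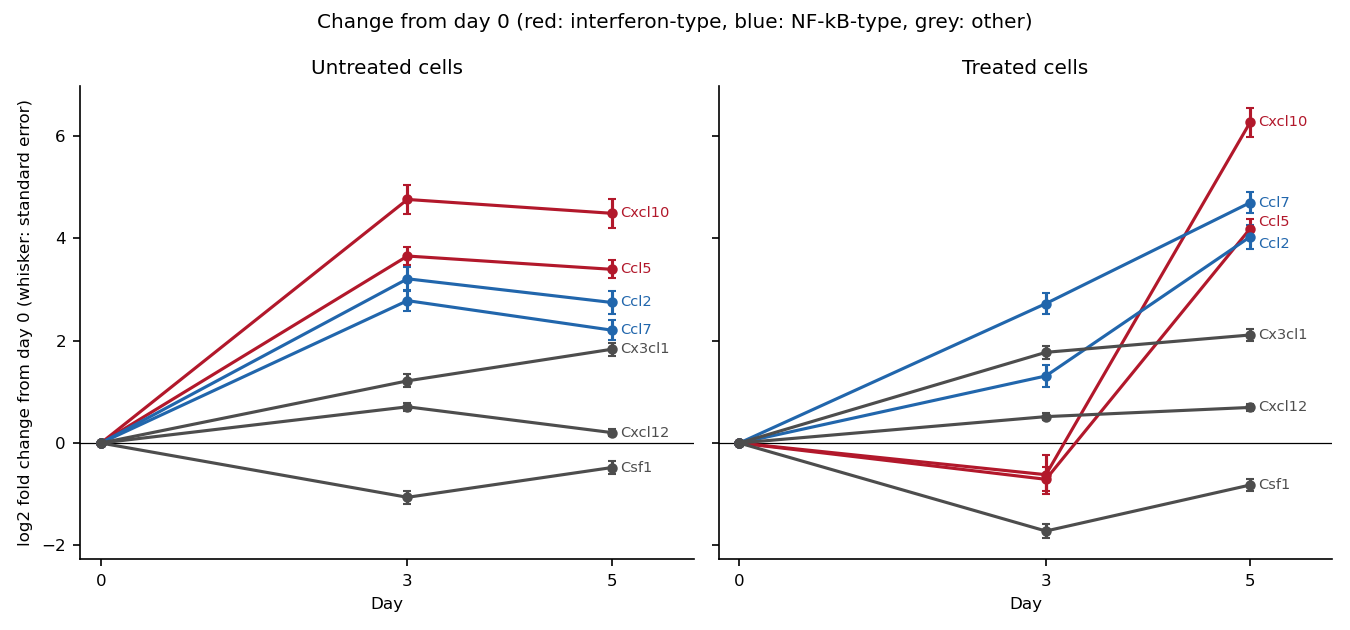
Log2 fold change from D0 to D3 and D5 in untreated (left) and treated (right) cells for the 7 members with higher counts, with whiskers for the standard error; both panels share the MEFD0 libraries. In untreated cells Cxcl10, Ccl5, Ccl2 and Ccl7 had risen at D3 and stayed high at D5, while in treated cells Cxcl10 and Ccl5 lay below 0 at D3 and Ccl2 and Ccl7 above it.

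Setting treated cells of one day against untreated cells of the other completed the order of conditions. MEFD3plu was above MEFD5min for 2 members and below it for 6, where 62.7% of genes were called, 31.2% higher and 31.4% lower. MEFD5plu was above MEFD3min for 7 members and below it for 0, where 56.7% of genes were called, 31.1% higher and 25.6% lower. In the first of these, the calls of Ccl7 (0.52, adjusted p = 0.0176) and Cxcl1 (-1.66, adjusted p = 0.0246) were lost without MEFD5min replicate 3 (0.34, adjusted p = 0.098, and -0.59, adjusted p = 0.361). They were also lost without MEFD3plu replicate 1, and Ccl7 without MEFD5min replicate 1 and Cxcl1 without MEFD3plu replicate 4. The Il6 call (-1.59, adjusted p = 0.0346) was lost without MEFD3plu replicates 3 or 4 or MEFD5min replicates 1 or 4. MEFD5plu was highest and the untreated D3 and D5 groups next for Cxcl10, Ccl5 and Ccl2, and the untreated groups were not separated from each other by the test (adjusted p = 0.32, 0.157 and 0.0806). For Ccl7, MEFD5plu was highest, MEFD3min and MEFD3plu were not separated (adjusted p = 0.804), and MEFD5min followed above MEFD0. For Cxcl12, MEFD3min and MEFD5plu were highest and not separated (adjusted p = 0.899). For Cx3cl1, MEFD5plu was followed by MEFD5min and MEFD3plu, which were not separated (adjusted p = 0.666), and MEFD0 was lowest. For Csf1 the order began with MEFD0 and MEFD5min, MEFD5plu and MEFD3min were not separated (adjusted p = 0.11, and 0.0181 without MEFD3min replicate 3), and MEFD3plu was lowest.

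Between genes, levels were compared per kilobase of exon (CPM per kb, mean ± SD, n = 3). The length was the union of exons, 8176 bases for Cxcl12 and 1138 for Ccl2, and may exceed that of the transcripts expressed. The order of these genes depends on it, since in CPM Cxcl12 was above Ccl2 in every condition. In MEFD0, Cxcl12 led at 116.5 ± 2.83, followed by Csf1 at 40.5 ± 4.31, Ccl2 at 26.4 ± 2.86 and Ccl7 at 8.98 ± 1.67. In MEFD3min, every Ccl2 value (197.5 to 306.3) was above every Cxcl12 value (186.5 to 193.8). Their means, 244.8 ± 55.8 and 190.2 ± 3.64, differed by less than the spread of Ccl2. Csf1 at 19.4 ± 2.92, Ccl5 at 17.8 ± 2.39 and Cxcl10 at 16.5 ± 2.74 lay within their spread. In MEFD3plu, Cxcl12 led again at 166.5 ± 2.19, and Cxcl10 at 0.390 ± 0.0852 and Ccl5 at 0.859 ± 0.0977 were below Cx3cl1 at 3.26 ± 0.223. In MEFD5plu the order was Ccl2 at 432.7 ± 24.1, Ccl7 at 233.9 ± 16.0, Cxcl12 at 188.6 ± 5.46 and Cxcl10 at 46.9 ± 3.79. Ccl5 at 25.9 ± 3.55 and Csf1 at 22.9 ± 1.59 came next and lay within their spread. Il6 and Cxcl1 stayed under 1 CPM per kb on average in every condition.

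Levels over all 15 libraries were compared between genes by Pearson correlation of log2 CPM (prior count 2). Among 11452 genes, the most like Cxcl10 were Trim30a and B2m (r = 0.994 each), Oas1g (0.993), Samd9l (0.992) and Isg15 (0.991). These are known as interferon-stimulated genes. For Ccl2 the closest was Ifitm3, a membrane protein known to be interferon-induced (r = 0.998). Iigp1, an interferon-inducible GTPase (0.994), Gm4951 (0.99), and Zfp260 and Cnot8 (0.989 each) followed. Among the members themselves, r was 0.988 between Cxcl10 and Ccl5, 0.925 between Cxcl10 and Ccl2, 0.879 between Ccl2 and Ccl7 and 0.671 between Cxcl10 and Ccl7. With Ccl2 and Ccl7, r was 0.301 and 0.34 for Cxcl1 and 0.836 and 0.808 for Il6, and it was 0.609 between Cxcl1 and Il6. Across classes, Ccl7 had an r of 0.853 with Cx3cl1 and 0.852 with Cxcl12. These values are over libraries that fall into 5 conditions, so they describe mostly differences between conditions.

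Genes of the pathways around these members were taken from lists, which were chosen with earlier results of these data known. Their counts stand beside the shares over all genes given above, 56.1% called at D3 and 50.5% at D5. The interferon response list held 33 genes, all tested. At D3, 33 of 33 were lower in treated cells (median log2 fold change -6.71), and at D5, 33 of 33 were higher (median 1.88). From MEFD0 to MEFD3min 33 of 33 rose (median 6.57), and the D3 comparison shares the MEFD3min libraries with this one. From MEFD0 to MEFD3plu, 6 rose, 10 fell and 17 were not called (median -0.15), where 63.5% of all genes were called. With the 6 genes at the floor in MEFD3plu and the 5 in MEFD0 set to their bounds, the D3 median was -6.53 and the MEFD0 to MEFD3min median 6.05. For the other lists, setting such genes to their bounds left the D3 medians given here as they were. Oas2, which senses double-stranded RNA, was at the floor in MEFD3plu and at least 869-fold lower there than in MEFD3min (adjusted p = 1.73e-11), and Ifit1, which binds foreign RNA, rose by 2.79 at D5 (SE 0.263, adjusted p = 1.97e-07). The interferon gene Ifnb1 itself had too few counts to be tested, with 0 to 1 in MEFD0, 1 to 4 in MEFD3min, 0 in MEFD3plu, 1 to 6 in MEFD5min and 8 to 19 in MEFD5plu. Its MEFD5plu libraries were above all others.

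Of the 20 genes of the NF-kB pathway and feedback list, 18 were tested, and 8 rose and 2 fell at D3 (median 0.21), while 5 rose and 4 fell at D5 (median -0.04). The 10 and 9 called of 18 are near the shares over all genes, 56.1% and 50.5%. Nfkbia, which encodes the inhibitor IkBα, rose by 1.33 at D3 (SE 0.134, adjusted p = 1.99e-07), and Nfkbiz, a nuclear IkB protein, rose by 1.79 (SE 0.173, adjusted p = 1.27e-07). At D5 Ptgs2 (COX-2) was lower in treated cells by 1.27 (SE 0.127, adjusted p = 3.86e-07). Tnfaip3 (A20), a ubiquitin-editing inhibitor of NF-kB, was lower by 1.11 (SE 0.215, adjusted p = 0.000407). In untreated cells, from MEFD3min to MEFD5min, Ptgs2 rose by 2.54 (SE 0.133, adjusted p = 1.87e-10) and Tnfaip3 by 2.42 (SE 0.232, adjusted p = 2.72e-07). From MEFD3plu to MEFD5plu, Ptgs2 rose by 1.04 (SE 0.128, adjusted p = 2.41e-06). The list's most changed gene was Lcn2, a secreted iron-siderophore binder also known to be made by adipocytes and induced by glucocorticoids, which went from at most 5 counts in MEFD3min to 17746 to 25540 counts in MEFD3plu. Lcn2 was also higher in treated cells at D5, by 11.5 (SE 0.31, adjusted p = 2.26e-14). Tnf and Il1b, the classical upstream cytokines, never exceeded 1 count, and the adhesion gene Icam1 never exceeded 3.

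Of 9 genes known as brakes on inflammatory expression, 6 rose and 2 fell at D3 (median 1.00), and 3 rose and 2 fell at D5 (median 0.09). Tsc22d3 (GILZ), a textbook glucocorticoid target, rose by 2.83 at D3 (SE 0.104, adjusted p = 5.93e-13) and by 1.59 at D5 (SE 0.101, adjusted p = 1.52e-09). Zfp36 (tristetraprolin) and Zc3h12a (regnase-1), which degrade cytokine mRNAs, rose at D3 by 1.33 (SE 0.182, adjusted p = 7.96e-06) and 1.36 (SE 0.218, adjusted p = 4.53e-05) and were not called at D5 (-0.29, adjusted p = 0.195, and 0.09, adjusted p = 0.768). The 3 genes named had the largest D3 changes, and the lowest D3 value of the list was -0.97. The interaction was called positive for 6 of the 9 and negative for 2, where 48.5% of all genes were called. The negative ones were Anxa1 (-1.76, SE 0.214, adjusted p = 4.24e-06) and Socs1 (-1.475, SE 0.164, adjusted p = 1.54e-06). Anxa1 was higher in treated cells at D5, by 0.99 (SE 0.152, adjusted p = 4.34e-05). The part of these 9 genes in the chemokine levels was not tested.

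**Figure D4:**
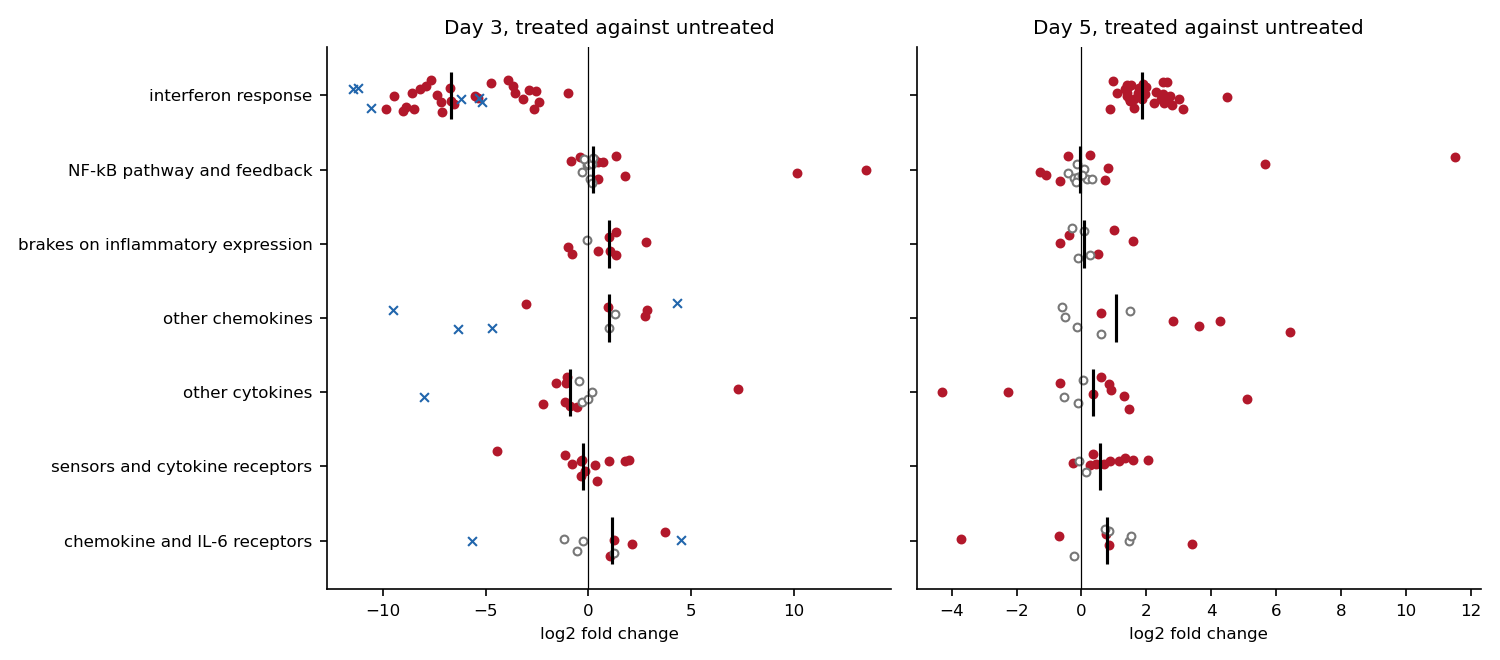
Log2 fold change of the tested genes of 7 lists, treated against untreated, at D3 (left) and D5 (right); the axes differ in range. Filled points passed the adjusted p threshold of 0.05, open points did not, crosses are genes at or under 3 counts in all libraries of a group, whose fitted value is not a bound, and bars are medians. All 33 interferon response genes lay below 0 at D3 and above 0 at D5, and the other lists had genes on both sides at D3.

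Among 30 further chemokines, 10 were tested, of which 4 rose and 4 fell at D3 (median 0.98) and 5 rose and 0 fell at D5 (median 1.07). Ccl11 (eotaxin-1), an eosinophil chemoattractant, measured 9.46 to 12.7 CPM in MEFD3min and 65.2 to 82.8 CPM in MEFD3plu. It then measured 3.11 to 5.89 CPM in MEFD5min and 80.9 to 98.8 CPM in MEFD5plu, so that it was higher in treated cells on both days, by 2.74 (SE 0.208, adjusted p = 5.54e-09) and 4.26 (SE 0.226, adjusted p = 1.31e-10). Ccl25 was also higher in treated cells, by 0.97 at D3 (SE 0.139, adjusted p = 1.39e-05) and 0.61 at D5 (SE 0.141, adjusted p = 0.00163). Ccl9 measured 0.617 to 1.31 CPM in MEFD3min, 6.61 to 9.19 in MEFD3plu, 0.112 to 0.297 in MEFD5min and 15.7 to 17.9 in MEFD5plu. Cxcl9, an interferon-induced CXCR3 ligand like Cxcl10, was at least 21.0-fold lower in MEFD3plu than in MEFD3min and rose by 2.84 at D5 (SE 0.526, adjusted p = 0.000388). Its MEFD5min libraries held from 1 to 39 counts. Ccl8 (MCP-2) had 0 counts in MEFD3plu, at least 29.9-fold lower than MEFD3min, against a floor of 3 counts per library.

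Of 24 chemokine and IL-6 receptor genes, 10 were tested, and 5 rose and 1 fell at D3, while 3 rose and 2 fell at D5 (medians 1.145 and 0.80). These 6 and 5 called of 10 stand beside the 56.1% and 50.5% of all genes called at D3 and D5. Among receptors that bind the members, Ccr2 and Cxcr3 had 0 counts in every library, Cx3cr1 at most 3 and Cxcr2 at most 6. Ccr1, which binds Ccl5 and Ccl7, was detected at low counts, with 34 to 52 in MEFD0, 1 to 2 in MEFD3min, 25 to 39 in MEFD3plu, 13 to 50 in MEFD5min and 41 to 63 in MEFD5plu. It was at least 10.8-fold higher in MEFD3plu than in MEFD3min, which was at the floor (adjusted p = 4.4e-05), and was not called at D5 (0.84, adjusted p = 0.123). Receptor genes for Il6 and Cxcl12 were also detected, Cxcr4 at low counts. Il6ra rose by 2.11 at D3 (SE 0.137, adjusted p = 7.24e-10) and 0.86 at D5 (SE 0.138, adjusted p = 6.71e-05), and Il6st rose by 1.06 (SE 0.0899, adjusted p = 2.47e-08) and 0.75 (SE 0.0897, adjusted p = 2.95e-06). Cxcr4 held 0 to 5 counts in MEFD0, 48 to 76 in MEFD3min, 0 to 3 in MEFD3plu, 24 to 38 in MEFD5min and 1 to 4 in MEFD5plu. It was at least 18.9-fold lower in MEFD3plu than in MEFD3min. Ackr3, the scavenging receptor for Cxcl12, rose by 1.26 at D3 (SE 0.129, adjusted p = 2.64e-07) and fell by 0.70 at D5 (SE 0.119, adjusted p = 0.000129).

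Of 21 other cytokine genes, 13 were tested, of which 1 rose and 8 fell at D3 (median -0.89) and 7 rose and 3 fell at D5 (median 0.35). Il1rn, the antagonist of the IL-1 receptor, rose by 7.26 at D3 (SE 0.205, adjusted p = 2.39e-14) and 5.09 at D5 (SE 0.181, adjusted p = 6.04e-13). Il33, an alarmin, followed the direction of Cxcl10, with 548 to 728 CPM in MEFD3min, 204 to 233 CPM in MEFD3plu, 427 to 596 CPM in MEFD5min and 924 to 983 CPM in MEFD5plu. Lif, an IL-6 family cytokine, was lower in treated cells at D5 by 2.28 on the log2 scale (SE 0.161, adjusted p = 5.59e-09). Of 12 sensors and cytokine receptors, all tested, 5 rose and 7 fell at D3 (median -0.24) and 9 rose and 1 fell at D5 (median 0.57). Tlr3, the sensor of double-stranded RNA, fell by 4.42 at D3 (SE 0.23, adjusted p = 3.97e-11) and rose by 2.05 at D5 (SE 0.191, adjusted p = 1.69e-07), while Il1r1 rose on both days, by 1.96 (SE 0.0726, adjusted p = 6.35e-13) and 1.58 (SE 0.0719, adjusted p = 1.71e-11).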

How the data were processed

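The authors deposited raw read counts per Ensembl gene for each of the 15 libraries, without normalization. Reads were aligned to GRCm38, and the submitters' processing notes name TopHat2 2.1.0, HTSeq and DESeq2 without roles. The release of the annotation, whether counting used strand, and what was done with multi-mapped reads are not given in the sources used here, and the sources differ on whether the library kit marked strand. Identifiers were named with GENCODE M21 (46005 of 46603).

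Counts were filtered by filterByExpr of edgeR 4.0.16 (R 4.3.3), which left 15997 genes, and TMM factors were computed. Comparisons came from glmQLFit and glmQLFTest in 1 fit of all 15 samples without covariates, two-sided. A call needed an adjusted p below 0.05 after Benjamini-Hochberg correction across the genes tested. CPM are TMM-scaled, and CPM per kb divide by the union of exons. A floor of 3 counts per library was used, and it covers counting error only. On counts simulated for the D3 comparison with 15395 genes, 85 of 100 genes changed by 1 on the log2 scale and 97 of 100 changed by 2 were recovered, with 11 false calls. For the interaction, 80 and 90 of 100 were recovered, with 12 false calls. The changed genes were drawn from those above a minimum mean count, and all others were simulated without a treatment difference. Recovery at low counts, or where many genes change, was thus not covered. Replicates of a condition differed beyond sampling noise (chi-square per degree of freedom 5.74 to 114), so none was counted as a repeat.

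The members, their classes and the gene lists were chosen with earlier results of these data known. The text names all members, from each other list at most the 3 called genes with the largest change and a mean log2 CPM of at least 1 per comparison, list genes at the floor, and the 5 genes most like Cxcl10 and Ccl2. Ifnb1, Cxcr2, Ccl9 and D5 values of some list genes were added after their values were seen. Endothelial and epithelial marker genes, 4 each, summed to at most 2.23 and 1.19 CPM.

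The labels share the replicate numbers 1, 3 and 4 between conditions. Deviations of same-numbered libraries from their group means correlated at 0.143, 0.228 and 0.36 between MEFD3min and MEFD3plu, so the numbers may pair these libraries, a hint from the data and not from a stated shared batch. The comparisons given have no block, and the fit with the replicate block is an alternative. Between MEFD5min and MEFD5plu the values were 0.0422, -0.00453 and 0.0539. Alternatives were DESeq2 1.42.0, only the compared samples, DESeq2 size factors or total counts for scaling, no filter, at least 10 counts in every sample, a stricter threshold of 0.01, a minimum change of 2-fold, a replicate block, and each library left out in turn. Figures were drawn with matplotlib.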

Additional observations from a re-analysis of the deposited data

Results flagged for a closer look

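The treated against untreated difference changed between D3 and D5 for 5 of the 9 tested members. This was tested by the interaction term in edgeR (quasi-likelihood test, Benjamini-Hochberg adjusted), as the D3 log2 fold change minus the D5 one. Over all genes tested, 48.5% were called for this term, 22.6% positive and 25.8% negative. The value was -7.16 for Cxcl10 (adjusted p = 1.54e-10), -5.16 for Ccl5 (adjusted p = 6.42e-11), -3.18 for Ccl2 (adjusted p = 2.32e-07), -2.55 for Ccl7 (adjusted p = 4.36e-07) and -0.68 for Cxcl12 (adjusted p = 4.83e-05). All 3 treated libraries of Cxcl10, Ccl5, Ccl2 and Cxcl12 were below the untreated ones at D3 and above them at D5. Of all genes tested, 56.8% had groups without overlap at D3 and 62.1% at D5. The D3 difference of Cxcl12 was small (-0.19, adjusted p = 0.036 by the same test). Its call was lost in 6 of 15 fits without 1 library, with no filter and with only the compared samples. Leaving out 1 library at a time kept the 5 interaction values, in the order given, between -7.39 and -6.88, -5.26 and -5.05, -3.38 and -2.92, -2.74 and -2.37, and -0.73 and -0.63.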

How the results depend on the processing

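Requiring at least a 2-fold change lowered the members called from 6 to 3 at D3 (Cxcl10, Ccl5 and Ccl2), from 7 to 3 at D5, from 5 to 1 in MEFD5min/MEFD3min, from 8 to 5 in MEFD5plu/MEFD3plu and from 7 to 4 in MEFD5plu/MEFD3min. In every other comparison, and in the interaction, it lost Cxcl12. It also lost Csf1 in MEFD5min/MEFD0 and MEFD5plu/MEFD0, Ccl5 in MEFD3plu/MEFD0 and Ccl7 in MEFD3plu/MEFD5min. An adjusted p under 0.01 lowered the members called from 8 to 5 in MEFD3plu/MEFD5min. Elsewhere this threshold lost Cxcl12 at D3, Cx3cl1 and Csf1 at D5, and Il6 in MEFD3min/MEFD0. Calls were also lost for Ccl7 in MEFD5min/MEFD3min, Cxcl1 and Cxcl12 in MEFD5min/MEFD0, and Cxcl12 and Cx3cl1 in MEFD5plu/MEFD3plu. Ccl5 and Il6 were lost in MEFD3plu/MEFD0 and Cxcl1 in MEFD5plu/MEFD0. At 2-fold, 3814 of all genes were called at D3, 2451 at D5 and 3489 for the interaction, against 8967, 8079 and 7753. Leaving out 1 library at a time, called members numbered 5 to 6 at D3, 5 to 7 at D5 and 5 to 6 for the interaction. Called genes of any kind numbered 8157 to 9283 at D3, 6818 to 8691 at D5 and 7032 to 8498 for the interaction. Directions reversed only for values that were not called. The ranges were -0.21 to 0.092 for Ccl7 and -1.32 to 0.50 for Il6 at D3, -0.77 to 0.70 for Cxcl1 at D5, -0.54 to 0.012 for Cxcl10 in MEFD5min/MEFD3min and -0.055 to 0.008 for Cxcl12 in MEFD5plu/MEFD3min. With the replicate block, 6 members were called at D3 and 6 at D5, where Cx3cl1 was lost (0.28, adjusted p = 0.0516 by edgeR). The pairing also added Ccl2 in MEFD5min/MEFD3min (-0.48, adjusted p = 0.0194), Cxcl1 in MEFD5plu/MEFD3plu (1.31, adjusted p = 0.0194) and Csf1 in MEFD5plu/MEFD3min (0.26, adjusted p = 0.038), and it changed no other member's call. Scaling by total counts alone moved the median of all genes by -0.16 at D5 and by 0.18 for the interaction, where Cx3cl1 was then called (0.46, adjusted p = 0.0325). The same scaling lost Cx3cl1 at D5 (0.12, adjusted p = 0.421) and, in MEFD5plu/MEFD3plu, Cxcl12 (0.099, adjusted p = 0.228) and Cx3cl1 (0.26, adjusted p = 0.0634), where 6 members were then called in place of 8. DESeq2 size factors lost Cx3cl1 at D5 (0.24, adjusted p = 0.0934) and Cxcl12 in MEFD5min/MEFD0 (0.19, adjusted p = 0.0567) and MEFD5plu/MEFD3plu (0.14, adjusted p = 0.124). Fitting only the compared samples lost Cxcl12 at D3 (-0.20, adjusted p = 0.144) and in MEFD5plu/MEFD3plu (0.14, adjusted p = 0.124) and Ccl7 in MEFD5min/MEFD3min (-0.575, adjusted p = 0.0587), and added Il6 at D5 (0.97, adjusted p = 0.0456) and Cxcl1 in MEFD5plu/MEFD3plu (1.25, adjusted p = 0.0128). With no filter, Cxcl12 was lost at D3 (adjusted p = 0.103), in MEFD5min/MEFD0 (0.217) and in MEFD5plu/MEFD3plu (0.251), and Cx3cl1 at D5 (0.133) and in MEFD5plu/MEFD3plu (0.064). It added Cxcl10 (0.0275) and Ccl2 (7.8e-06) in MEFD5min/MEFD3min, Cxcl1 in MEFD5plu/MEFD3plu (0.00513) and Cxcl10 in MEFD3plu/MEFD0 (0.00849). Counting Cx3cl1 and Csf1 as NF-kB-type changed the difference of class medians (interferon-type minus NF-kB-type) from 0.16 to 0.66 at D5 and from -4.26 to -5.38 for the interaction, and left -4.71 at D3. The cause of these changes was not tested. Depth limits Il6, Cxcl1 and Cxcl5, whose counts were low in most libraries.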
